A study of Mus musculus with 29 samples.

Results

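The natriuretic peptide system of the mouse atrium is described here through 8 genes, chosen by name from the 55292 gene names counted in every library. They are the peptide precursors Nppa, Nppb and Nppc, the receptors Npr1, Npr2 and Npr3, the activating protease Corin and the degrading protease Mme. Natriuretic peptides are hormones that atrial muscle cells store in granules and release when the atrial wall is stretched, and they act on kidney, vessels and fat as well as on the heart itself. Npr1 and Npr2 encode guanylyl cyclases that make the second messenger cGMP, and Npr3 encodes a receptor that takes peptides up and removes them. Nppa is among the most abundant messages of atrial muscle, and the ventricle uses it mainly before birth and under load.

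RNA from the atria of male mice was sequenced in 29 libraries of 6 groups. NaV1.5_HFD (5 libraries) and NaV1.5_RD (4 libraries) came from mice of the NaV1.5 genotype on high-fat and regular diet, and Ctrl_HFD (4 libraries) and Ctrl_RD (4 libraries) from control mice on the same diets. NR (7 libraries) and vehicle (5 libraries) were NaV1.5 mice that all received the high-fat diet, with nicotinamide riboside, a precursor of NAD, or with vehicle. High-fat feeding lasted 4 weeks and began at 5 weeks of age. The genotype label NaV1.5 comes with no promoter, form or strain background. Nor is it stated whether each library was a separate mouse, so p-values measure the spread between libraries, which may be partly technical.

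Total counts per library ran between 13189995 and 33061018 read pairs assigned to genes. The diet groups carried the label batch 1, apart from Ctrl_HFD replicate 4, which was labelled batch 2. NR replicates 1 to 5 were labelled batch 2, while NR replicates 6 and 7 and all 5 vehicle libraries were labelled batch 3. The fitted contrast of NR with vehicle therefore rests on 2 NR and 5 vehicle libraries. The 5 NR libraries of batch 2 stood apart from the rest, and levels over all libraries are followed by those over the 16 libraries of batch 1. The titles of the libraries called NaV1.5_RD replicate 4 and Ctrl_RD replicate 1 carry no number, and these numbers serve here as names only. Levels are given as CPM, the counts scaled to library size by the TMM method over all libraries, and as FPKM, the same scaled also to exon length, where genes are compared with each other. Batch 3 also differed from batch 1, with 502 to 783 CPM of Corin against 307 to 427 CPM. The summed level of 8 atrial cardiomyocyte markers was 13969 to 18550 CPM in batch 3 and 26678 to 39112 CPM in batch 1. Vehicle and NaV1.5_HFD share genotype and diet, yet Corin averaged 657 and 350 CPM in them.

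Nppa and Nppb lie next to each other on chromosome 4, both on the forward strand. In build GRCm38 the counted exons of Nppb run from 147985788 to 147987205 and those of Nppa from 148000722 to 148002079, with 13517 bases between the genes. Each had 3 exon blocks. The 250 bases before the RefSeq start of each gene (GRCm38.p6, forward strand) are shown because these are the 2 most abundant members, because the cardiac factors listed further down bind such promoters, and because Nppa was called in the diet comparisons. Capitals mark matches to GATAA, the core of a GATA factor site, AAGTG, the core of an NKX2-5 site, and AGGTGTGA, a T-box site, each searched on both strands, and to TATAAA on the coding strand.
Nppa, chr4:148000472-148000721: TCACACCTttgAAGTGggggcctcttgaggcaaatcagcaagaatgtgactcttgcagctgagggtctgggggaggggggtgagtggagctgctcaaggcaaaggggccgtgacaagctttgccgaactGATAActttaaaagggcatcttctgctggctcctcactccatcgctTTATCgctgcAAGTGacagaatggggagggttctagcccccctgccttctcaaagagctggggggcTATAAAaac
Nppb, chr4:147985650-147985899: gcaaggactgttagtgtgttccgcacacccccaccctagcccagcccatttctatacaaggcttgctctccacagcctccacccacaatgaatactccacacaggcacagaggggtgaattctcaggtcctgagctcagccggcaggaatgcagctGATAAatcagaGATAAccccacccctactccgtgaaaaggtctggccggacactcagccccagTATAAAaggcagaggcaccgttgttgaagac
The annotation used for counting begins Nppb inside the window shown.

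The Nppa window held 2 GATAA matches, starting 121 and 75 bases before the RefSeq start, 2 AAGTG matches, starting 239 and 65 bases before it, and 1 T-box match at its far end, 250 bases before the start. The Nppb window held 2 GATAA matches, starting 94 and 83 bases before the start, and none of the other factor motifs. No 2 matches overlapped. Over the first 250 bases of all 32851 promoters in the RefSeq table, 22.6% held at least 1 GATAA match and 4.28% held 2 or more. AAGTG was present in 40.7% of them, with 10.2% holding 2 or more, and TATAAA in 7.59%. The 8-letter T-box sequence AGGTGTGA was present in 1.12%. The CArG box, bound by serum response factor, was present in 1.47% and in neither of the windows shown. A match describes letters only and shows no binding.

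The 8 genes covered more than 5 orders of magnitude in length-scaled level. Over all 29 libraries the mean was 19307 FPKM for Nppa, which ranked 6 among all genes, and 704 FPKM for Nppb, which ranked 54. Corin, the membrane protease of cardiac muscle that cuts the Nppa product into active hormone, averaged 71.0 FPKM (rank 554). The clearance receptor Npr3, which takes up all natriuretic peptides, averaged 41.0 FPKM (rank 939). The guanylyl cyclase receptor Npr2, which binds the Nppc product, averaged 16.3 FPKM (rank 2365), and Npr1, which binds the Nppa and Nppb products, averaged 10.4 FPKM (rank 3528). Mme, which encodes the peptide-degrading enzyme neprilysin, averaged 0.433 FPKM (rank 15052). Nppc averaged 0.0362 FPKM (rank 24165). Over the 16 libraries of batch 1 alone the means were 23369 FPKM for Nppa, 722 for Nppb, 63.4 for Corin (rank 672), 26.4 for Npr3 (rank 1586), 18 for Npr2, 10.1 for Npr1, 0.241 for Mme (rank 16413) and 0.0510 for Nppc. The order of the members was the same. FPKM uses all exon bases, although pairs over exons shared with a gene on the opposite strand were not counted. Shared were 532 of 865 bases of Nppa, 559 of 4783 of Npr1 and 266 of 4667 of Npr2. For Npr3 it was 321 of 9389 and for Corin 147 of 5400. The FPKM of these genes may therefore be too low, that of Nppa most.

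**Figure D1:**
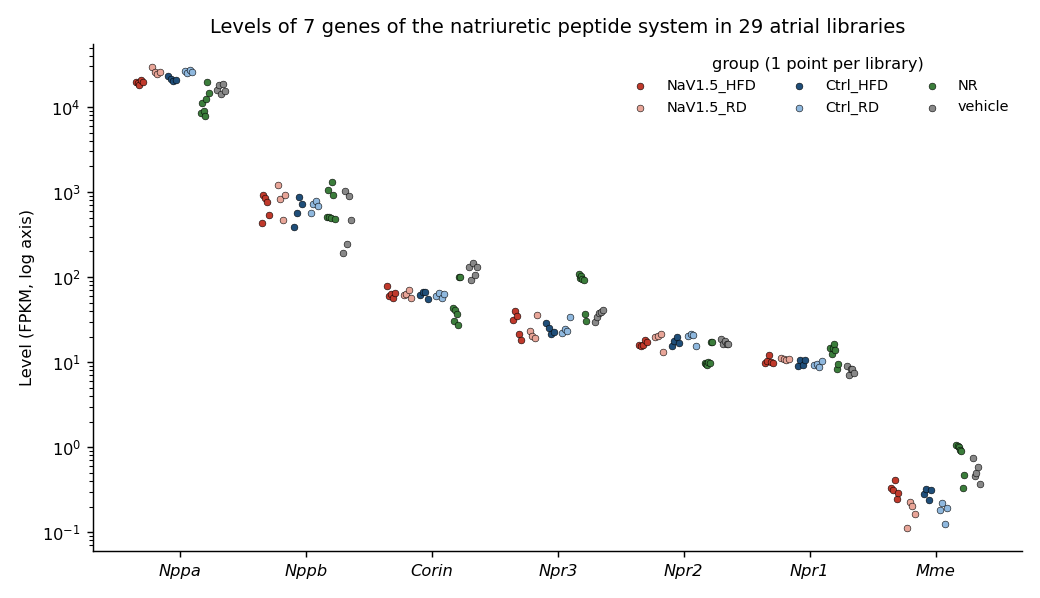
Level of 7 members in FPKM on a log axis, 1 point per library, with the groups in the order of the legend within each gene; Nppc is left out because 15 of its 29 libraries had 0 counts. The order of the genes on the axis is that of the mean over all libraries, and NR libraries split into separate clouds for Corin, Npr3, Npr2, Npr1 and Mme.

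The order Nppa, Nppb, Corin, Npr3, Npr2, Npr1, Mme, Nppc held for the group means of all 4 diet groups, of vehicle and of the 2 NR libraries of batch 3. Libraries of neighbouring members did not overlap in NaV1.5_HFD, Ctrl_HFD, NR batch 3 or vehicle. In NaV1.5_RD the ranges of Npr3 (19.1 to 35.9 FPKM) and Npr2 (13.2 to 21.2 FPKM) overlapped, and so did those of Mme and Nppc. In Ctrl_RD only Mme and Nppc overlapped. In the 5 NR libraries of batch 2, Npr3 (mean 99.4 FPKM) stood above Corin (mean 35.7 FPKM), and Npr1 (mean 14.5 FPKM) above Npr2 (mean 9.64 FPKM), without overlap.

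Nppc, the precursor of C-type natriuretic peptide, which is made mainly by endothelium and cartilage, had too few counts to be tested. It had between 0 and 4 counts in each library and 22 counts in all. Among the diet groups it had at least 1 count in 3 of 9 NaV1.5 libraries (4 counts in all), against all 8 Ctrl libraries (15 counts in all). NR libraries had 3 counts in all, and the 5 vehicle libraries had 0. A count of 0 still allows for 3 counts, which in the vehicle libraries is a level of 0.128 to 0.192 CPM. These limits cover counting error only.

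In the edgeR comparisons members changed past the threshold with high-fat feeding only, where Nppa fell and Mme rose. In NaV1.5 atria Nppa averaged 16923 ± 761 CPM on high-fat diet (SD, n = 5) and 22822 ± 1936 CPM on regular diet (SD, n = 4). The NaV1.5_HFD libraries had 17147, 16668, 15836, 17926 and 17036 CPM, against 25554, 22434, 20986 and 22314 CPM in the NaV1.5_RD libraries. Every high-fat library lay below every regular-diet library.

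The difference of Nppa in NaV1.5 atria was -0.44 on the log2 scale (SE 0.089, 95% interval -0.62 to -0.25, edgeR adjusted p = 0.0279), which is 0.739 times the regular-diet level. It was the only one of the 7 members tested that passed. Nppa and Mme were the 2 with an unadjusted p below 0.05. Among all 16168 genes tested in this comparison 1.13% passed, with 0.656% lower on high-fat diet and 18.9% at an unadjusted p below 0.05, and the median log2 difference was -0.07 over the members and -0.01 over all genes. The call was lost without NaV1.5_RD replicate 1, 2 or 3 or NaV1.5_HFD replicate 2 or 3, with adjusted p up to 0.094 and differences between -0.47 and -0.37 over all libraries left out in turn. When libraries were scaled on 8 cardiomyocyte genes instead, the difference was -0.33 (adjusted p = 0.0682).

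In control atria Nppa averaged 18591 ± 1179 CPM on high-fat diet and 22830 ± 678 CPM on regular diet (SD, n = 4 each). The Ctrl_HFD libraries had 20237, 18498, 17466 and 18162 CPM, against 23087, 22018, 23607 and 22609 CPM in the Ctrl_RD libraries. Here too the diets did not overlap, with the single batch 2 library inside the range of its group. The log2 difference, in a fit whose batch term absorbs replicate 4 of Ctrl_HFD, was -0.29 (SE 0.1, 95% interval -0.50 to -0.08) and did not pass over all genes (edgeR adjusted p = 0.524), in a comparison where 0% of 16168 genes passed and 8.48% had an unadjusted p below 0.05. DESeq2 called Nppa in the same comparison (adjusted p = 0.0416), as 1 of 19 genes it called there, and limma-voom did not call it.

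Averaged over both genotypes, Nppa fell by 0.36 on the log2 scale (SE 0.068, 95% interval -0.51 to -0.22, edgeR adjusted p = 0.00999). In this comparison 2 of the 7 members tested passed, Nppa and Mme, against 4.95% of all 16168 genes, and 2.78% of genes were lower on high-fat diet. The share at an unadjusted p below 0.05 was 23.5%. The call on Nppa held with each of the 17 libraries left out in turn (differences -0.39 to -0.33) and in all 12 other settings (differences -0.38 to -0.29). The diet difference in NaV1.5 atria minus that in Ctrl atria was -0.15 (95% interval -0.43 to 0.14), so the data do not show whether the genotypes responded unequally. In that interaction test neither edgeR, DESeq2 nor limma-voom called a member (0 of 7), and the unadjusted p of all 7 was above 0.05. Of all genes 0% passed and 2.26% lay below 0.05 unadjusted.

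**Figure D2:**
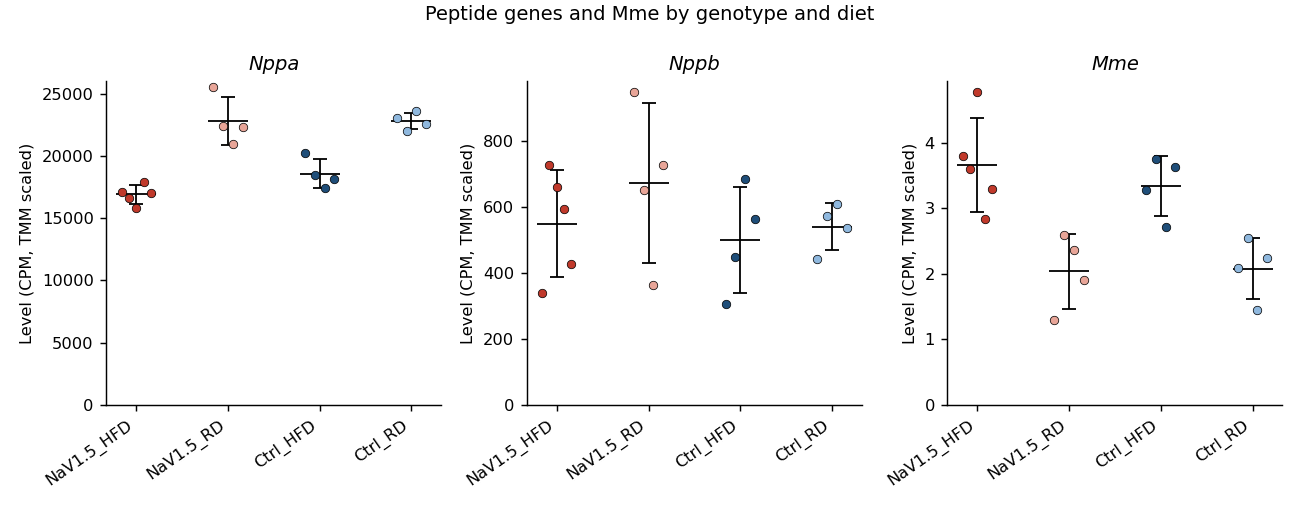
Levels of Nppa, Nppb and Mme in CPM in the 4 diet groups, 1 point per library, with the mean as a long tick and the SD as error bars. The high-fat libraries of Nppa sit at 15836 to 20237 CPM and the regular-diet libraries at 20986 to 25554 CPM, the diets of Mme also separate within each genotype, and those of Nppb overlap.

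The summed level of 8 atrial cardiomyocyte markers ranged between 27183 and 31724 CPM in NaV1.5_HFD and between 26678 and 39112 CPM in NaV1.5_RD, and between 29698 and 32928 CPM in Ctrl_HFD and between 27015 and 34503 CPM in Ctrl_RD, so these sums overlapped between the diets. Of these 8 markers 1 passed the test averaged over genotypes, the T-box factor Tbx5, which was lower. In bulk RNA, fewer cells of a type and less RNA per cell cannot be told apart. Of 5 adipocyte markers 4 were tested and 2 were lower on high-fat diet averaged over genotypes (edgeR; 0 by DESeq2), with a median of -1.99, although their summed level was at most 17 CPM in any library of the diet groups. All 5 tested of 6 ventricular cardiomyocyte markers had a negative difference with diet, with a median of -0.63 in NaV1.5 atria and -0.42 averaged over genotypes. In the averaged comparison edgeR called 0 of them (2 at an unadjusted p below 0.05), DESeq2 1 and limma-voom 2. Their summed level was 191 to 556 CPM in NaV1.5_HFD and 399 to 765 CPM in NaV1.5_RD, and 265 to 312 CPM in Ctrl_HFD and 259 to 533 CPM in Ctrl_RD. All 5 epicardial or mesothelial markers had a positive averaged difference (median 0.33), with 0 calls by edgeR or DESeq2. By limma-voom all 5 passed, and over all 16168 genes 1793 were higher and 2142 lower. By edgeR 1 of these 5 markers had an unadjusted p below 0.05. Their summed level was 457 to 613 CPM in NaV1.5_HFD and 275 to 664 CPM in NaV1.5_RD, and 413 to 733 CPM in Ctrl_HFD and 350 to 527 CPM in Ctrl_RD. By edgeR 1 of 8 endothelial markers was lower, Vwf (-0.60, adjusted p = 0.0200), and 1 of 6 macrophage markers higher, Mrc1 (0.27, adjusted p = 0.0454). Of the 8 endothelial markers 4 had a positive and 4 a negative averaged difference (median -0.05). Of the 6 macrophage markers 2 were positive and 4 negative (median -0.02). The share of counts from mitochondrial genes was 20.4% to 25.3% in NaV1.5_HFD and 18.8% to 20.6% in NaV1.5_RD, and 20.4% to 26.6% in Ctrl_HFD and 18.7% to 21.9% in Ctrl_RD. With library totals taken without mitochondrial genes, Nppa and Nppb, the Nppa difference in NaV1.5 atria was -0.43. The part of fat cells or of these other cell types in the result was not tested.

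The Nppa transcript has 55.3% G and C, and that of Mme 38.0%. Npr1, at 57.4%, and Npr2, at 55%, are about as rich in G and C as Nppa and did not pass with diet by edgeR. Averaged over genotypes, the differences of Nppa (-0.36), Npr2 (-0.18) and Npr1 (-0.03) were negative. Those of Corin (48.4% G and C, 0.06), Npr3 (44%, 0.09) and Mme (0.75) were positive, and that of Nppb (47.9%) was -0.24. The part of base composition was not tested apart from the offsets that follow. With offsets for G and C content and length, an alternative added after the values were seen, the Nppa difference averaged over genotypes was -0.29 (adjusted p = 0.0476) and that in NaV1.5 atria -0.32 (adjusted p = 0.138). On the opposite strand, Gm13054 overlaps 532 exon bases of Nppa. Pairs over both were not counted, and strand was not used. Gm13054 had between 8.84 and 56.5 CPM and a log2 difference with diet of 0.10 averaged over genotypes (edgeR adjusted p = 0.554). The other near neighbour, the chloride transporter gene Clcn6, had a difference of -0.15 in the same comparison (adjusted p = 0.33).

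Nppb, which encodes B-type natriuretic peptide, varied more between libraries than Nppa within every diet group and did not pass any of the comparisons by genotype, diet or NR. The NaV1.5_HFD libraries had 338, 726, 659, 593 and 425 CPM, against 948, 650, 362 and 728 CPM in the NaV1.5_RD libraries. The Ctrl_HFD libraries had 307, 447, 683 and 563 CPM, against 442, 571, 610 and 536 CPM in the Ctrl_RD libraries. The groups overlapped throughout.

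The log2 difference of Nppb with diet was -0.30 in NaV1.5 atria (95% interval -0.90 to 0.31) and -0.18 in Ctrl atria (95% interval -0.87 to 0.52). An equal fall to that of Nppa therefore lies within both intervals, and so does none. The coefficient of variation of Nppb was 29.6% in NaV1.5_HFD, 36% in NaV1.5_RD, 32.2% in Ctrl_HFD and 13.2% in Ctrl_RD. That of Nppa was 4.50%, 8.48%, 6.34% and 2.97% in the same groups. The ratio of Nppb to Nppa CPM ran between 0.0197 and 0.0436 in NaV1.5_HFD and between 0.0173 and 0.0371 in NaV1.5_RD, and between 0.0152 and 0.0391 in Ctrl_HFD and between 0.0192 and 0.0259 in Ctrl_RD.

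Mme was the other member to pass, and it moved the opposite way. Neprilysin degrades natriuretic peptides and other small peptides and is the target of the drug sacubitril. The NaV1.5_HFD libraries had 3.8, 3.60, 4.77, 2.84 and 3.30 CPM, against 1.30, 2.59, 2.36 and 1.91 CPM in the NaV1.5_RD libraries. The Ctrl_HFD libraries had 3.28, 3.75, 2.72 and 3.63 CPM, against 2.09, 2.54, 1.44 and 2.23 CPM in the Ctrl_RD libraries. Within each genotype every high-fat library lay above every regular-diet library. These levels correspond to 56 to 77 counts in NaV1.5_HFD, 26 to 45 in NaV1.5_RD, 42 to 112 in Ctrl_HFD and 26 to 60 in Ctrl_RD.

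Averaged over genotypes Mme was 1.68 times as high on high-fat as on regular diet (log2 difference 0.75, SE 0.17, 95% interval 0.40 to 1.09, edgeR adjusted p = 0.0196), where 2.16% of all genes tested were higher. In NaV1.5 atria alone the difference was 0.84 (95% interval 0.37 to 1.31, adjusted p = 0.0655) and in Ctrl atria 0.65 (95% interval 0.14 to 1.16, adjusted p = 0.524). The averaged call was lost without Ctrl_HFD replicate 1 (adjusted p = 0.0519) or replicate 2 (adjusted p = 0.0647), and with the offsets for G and C content and length (0.57, adjusted p = 0.0738). The call in NaV1.5 atria was made by DESeq2 (adjusted p = 0.0124) and by limma-voom (adjusted p = 0.0267). Of all 16168 genes DESeq2 called 849 there and limma-voom 1970, against 182 by edgeR. Mme is also made by cells other than muscle. Of 8 fibroblast markers 0 passed by edgeR or DESeq2 and 3 by limma-voom in the averaged comparison, with a median of -0.13. Of these 8, 3 had a positive and 5 a negative difference. All 5 epicardial or mesothelial markers had a positive difference there (median 0.33), with 0 calls by edgeR or DESeq2 and 5 by limma-voom. Over all 16168 genes limma-voom called 1793 higher and 2142 lower in that comparison. The part of these cell types in the Mme difference was not tested.

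**Figure D3:**
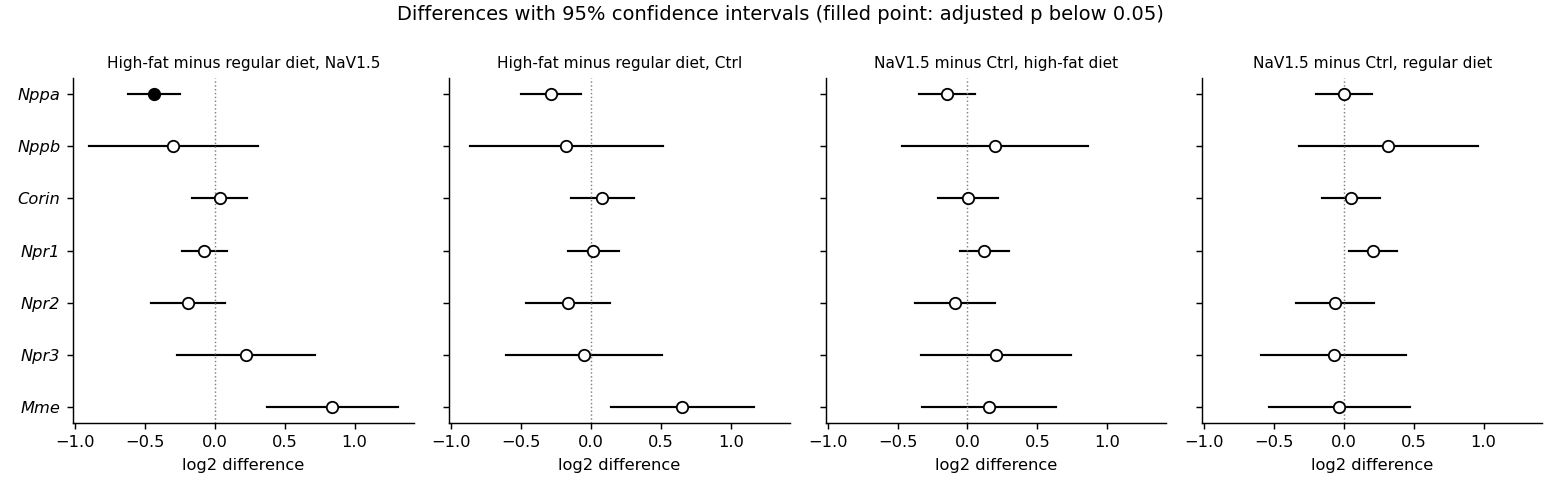
Log2 difference of 7 members with its 95% confidence interval, for high-fat against regular diet in each genotype and for NaV1.5 against Ctrl on each diet; filled points have an edgeR adjusted p below 0.05 and the dotted line marks no difference. Nppa in NaV1.5 atria is the single filled point, at -0.44, and both diet intervals of Nppa and of Mme lie on 1 side of 0.

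Corin varied little over the diet groups. It had 427, 322, 344, 308 and 352 CPM in NaV1.5_HFD, against 331, 345, 379 and 307 CPM in NaV1.5_RD, and 328, 362, 357 and 301 CPM in Ctrl_HFD, against 320, 351, 309 and 338 CPM in Ctrl_RD. The groups overlapped. Its log2 difference with diet was 0.03 in NaV1.5 atria (95% interval -0.16 to 0.23) and 0.08 in Ctrl atria (95% interval -0.14 to 0.30). Among members that did not pass, Corin and Npr1 had the narrowest intervals, so a change of the size seen for Mme lay outside them.

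Npr1, the receptor through which the Nppa and Nppb products raise cGMP, differed by diet by -0.07 in NaV1.5 atria (95% interval -0.24 to 0.09) and 0.02 in Ctrl atria (95% interval -0.17 to 0.20). Its largest difference was with genotype. On regular diet the NaV1.5 libraries had 54.0, 51.7, 50.2 and 52.6 CPM, against 44.1, 45.7, 41.9 and 48.7 CPM in the Ctrl libraries. The genotypes did not overlap on regular diet. On high-fat diet they did, with 46.1, 49.3, 57.5, 48.5 and 47.2 CPM in NaV1.5 libraries, against 42.9, 50.1, 44.2 and 51.3 CPM in Ctrl libraries.

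None of these Npr1 differences passed over all genes. The log2 difference was 0.21 on regular diet (SE 0.082, edgeR adjusted p = 0.769) and 0.16 averaged over diets (SE 0.059, adjusted p = 0.25). The genotype comparisons called 0 of 7 members on regular diet, on high-fat diet and averaged, by edgeR, DESeq2 and limma-voom. The number with an unadjusted p below 0.05 was 1 on regular diet (Npr1), 0 on high-fat diet and 1 averaged (Npr1). Over all 16168 genes, 0.0124% passed on regular diet, 0.0866% on high-fat diet and 0.452% averaged. The shares at an unadjusted p below 0.05 were 6.11%, 8.05% and 11.4% in the same comparisons. Scaling on cardiomyocyte genes gave Npr1 an averaged difference of 0.31 (adjusted p = 0.0235), but moved the median of all genes by 0.15.

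Npr2 and Npr3 varied between libraries more than between groups. Npr2 had 73.4, 71.8, 73.3, 84.3 and 81.0 CPM in NaV1.5_HFD, against 92.8, 95.6, 99.1 and 61.7 CPM in NaV1.5_RD, and 71.2, 82.1, 92.3 and 78.2 CPM in Ctrl_HFD, against 95.8, 99.9, 98.1 and 72.1 CPM in Ctrl_RD. On regular diet 3 of 4 libraries of each genotype lay above every high-fat library of that genotype. The remaining libraries, at 61.7 CPM in NaV1.5_RD and 72.1 CPM in Ctrl_RD, lay below or near the low end. The log2 difference with diet averaged over genotypes was -0.18 (SE 0.095, edgeR adjusted p = 0.265). Without NaV1.5_RD replicate 4 it was -0.24 (adjusted p = 0.0363), and limma-voom with all libraries gave -0.25 (adjusted p = 0.0168).

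Npr3 had 290, 373, 323, 203 and 170 CPM in NaV1.5_HFD, against 221, 189, 179 and 337 CPM in NaV1.5_RD, and 272, 237, 199 and 212 CPM in Ctrl_HFD, against 206, 232, 215 and 321 CPM in Ctrl_RD. In each genotype the regular-diet library with the most Npr3 was the one with the least Npr2. The log2 differences with diet were 0.23 in NaV1.5 atria (95% interval -0.27 to 0.72) and -0.05 in Ctrl atria (95% interval -0.61 to 0.51). Neither passed the test.

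**Figure D4:**
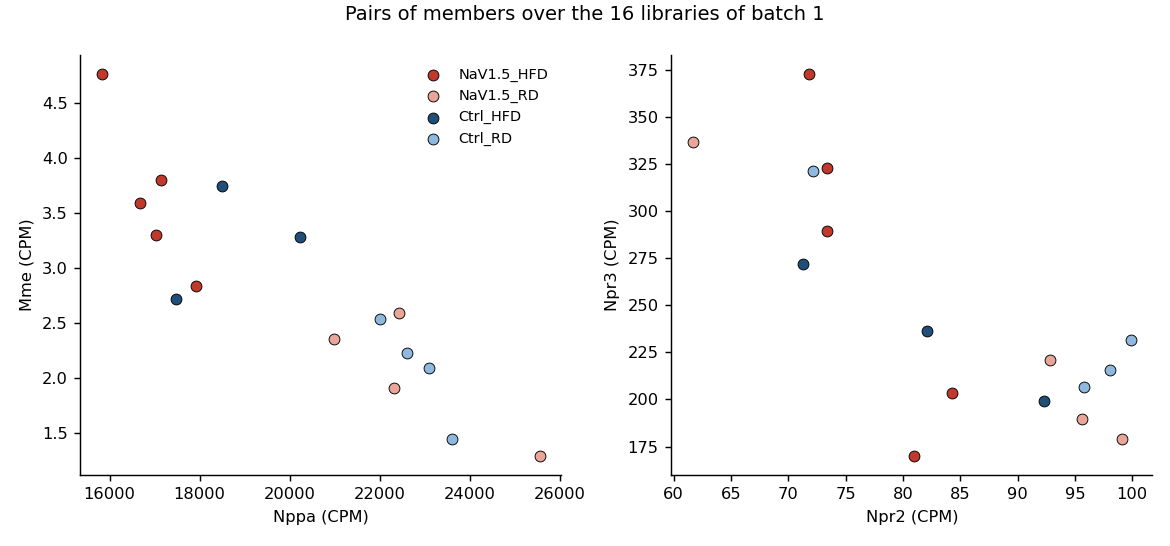
Nppa against Mme and Npr2 against Npr3, both in CPM, over the 16 libraries of batch 1, coloured by group. High-fat libraries lie at low Nppa and high Mme, and libraries with little Npr2 tend to hold more Npr3.

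Over the 16 libraries of batch 1 the Pearson r of log2 CPM was -0.88 between Nppa and Mme and -0.79 between Npr2 and Npr3. It was 0.21 between Nppa and Nppb. These are descriptions over libraries that share diets, genotypes and a batch, and they carry no p. Over the 7 libraries of batch 3 the same pairs had r of -0.23, -0.64 and 0.81.

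In that batch libraries with more Nppb tended to have more Nppa and less Corin. Nppb had 715 and 372 CPM in the NR libraries of batch 3, against 151, 798, 191, 704 and 363 CPM in the vehicle libraries. Its r with Corin was -0.82 in batch 3 and -0.50 in batch 1. The 3 libraries with most Nppb, which were NR replicate 6 and vehicle replicates 2 and 4, also had the highest Nppa, at 16895, 15740 and 16029 CPM. Vehicle replicates 2 and 4 had the lowest Corin of their group, at 502 and 577 CPM.

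The genes whose levels followed each member most closely were taken as the 3 with the highest r over the 16 libraries of batch 1, among 10517 genes. Nppa was followed by Cirbp (r 0.92), which encodes a cold-inducible RNA-binding protein, by Eml2 (0.91) and by Washc1 (0.90). All 3 had a negative r with Nppa in batch 3, where diet did not vary. Npr2 was followed by Hectd4 (0.98), Atxn2 (0.97) and Cspg4 (0.96), the last of which marks pericytes. Npr3 was followed by Ptgs1 (0.96), the prostaglandin synthase Cox-1, by Tm4sf1 (0.95), an endothelial membrane protein, and by Cgnl1 (0.94). Ptgs1 was the only one of these 9 with an r above 0.5 in batch 3 (0.71). Nppb was followed by Pik3ap1 (0.84), Parva (0.79) and Thbs2 (0.77), and Npr1 by Wipf1 (0.80), Fbxo4 (0.79) and Comp (0.76). In batch 3 the r with Nppb was 0.23, 0.06 and 0.52, and that with Npr1 -0.69, -0.06 and -0.41, in the same order. Corin was followed by Rb1 (0.82), Adck1 (0.77) and Gnl3l (0.71), and Mme by Shprh (0.90), the mitochondrial proline tRNA mt-Tp (0.90) and Ahsa1 (0.89). Their r in batch 3 was 0.31, -0.25 and 0.61 with Corin, and 0.34, 0.42 and 0.23 with Mme.

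Transcription factors known to act on the Nppa and Nppb genes formed a list of 20, of which 19 were tested. Averaged over genotypes 1 of the 19 was lower on high-fat diet and 0 were higher by edgeR, where 4.95% of all genes passed, and the median log2 difference was -0.10, against -0.01 over all genes. The one that passed was Tbx5, a T-box activator of Nppa, with a log2 difference of -0.50 (SE 0.11, adjusted p = 0.0206). It averaged 161 ± 20.6 CPM in NaV1.5_HFD (n = 5) and 244 ± 47.0 CPM in NaV1.5_RD (n = 4), and 193 ± 45.1 CPM in Ctrl_HFD and 257 ± 26.5 CPM in Ctrl_RD (SD, n = 4 each). DESeq2 called the same 1 factor, and over all 16168 genes it called 728 higher and 889 lower. By limma-voom 6 factors passed, and over all genes 1793 were higher and 2142 lower. Nkx2-5, a homeobox activator of Nppa, had a difference of -0.28 (edgeR adjusted p = 0.132). In NaV1.5 atria alone the list had 0 calls by edgeR, 1 by DESeq2 and 1 by limma-voom. Of all 16168 genes DESeq2 called 849 there and limma-voom 1970. By edgeR 3 of the 19 factors had an unadjusted p below 0.05, where 18.9% of all genes did. By edgeR these shares are near or under those of all genes. The 3 factors were Tbx5 (-0.60, adjusted p = 0.0521), Nkx2-5 (-0.40, adjusted p = 0.141) and Hand2 (-0.30, adjusted p = 0.144). The lists were chosen with earlier results of these data known.

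Among 9 load-responsive genes that are often read beside Nppa and Nppb, 2 were higher and 0 were lower on high-fat diet averaged over genotypes by edgeR. Over all 16168 genes 2.16% were higher and 2.78% lower. DESeq2 called 2 and limma-voom 4, adding Ccn2, which encodes a connective tissue growth factor (-0.50, limma-voom adjusted p = 0.0250), and Gdf15, a stress-induced cytokine gene (1.03, limma-voom adjusted p = 0.0206). Over all genes DESeq2 called 728 higher and 889 lower there, and limma-voom 1793 higher and 2142 lower. Xirp2, an actin-binding protein of the intercalated disc, averaged 204 ± 19.5 CPM in NaV1.5_HFD (n = 5) and 140 ± 8.16 CPM in NaV1.5_RD (n = 4), and 178 ± 30.3 CPM in Ctrl_HFD and 135 ± 8.05 CPM in Ctrl_RD (SD, n = 4 each). Its averaged log2 difference was 0.51 (SE 0.065, edgeR adjusted p = 0.00145). Fhl1, a LIM protein of the sarcomere, had a difference of 0.30 (SE 0.074, adjusted p = 0.029). Xirp2 and Fhl1 moved opposite to Nppa, while the median of the list was 0.01.

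Peptide processing genes other than Corin and Mme did not pass by edgeR. Of 6 listed, 4 were tested, and averaged over genotypes the convertase Pcsk6, which activates corin, had a difference of -0.22 (adjusted p = 0.0949) and the convertase Furin -0.20 (adjusted p = 0.145). By edgeR 2 of the 4 had a positive and 2 a negative averaged difference. DESeq2 called 0 and limma-voom 3, which were Pcsk6 (-0.27), Furin (-0.23) and, in the other direction, Dpp4 (0.44, limma-voom adjusted p = 0.0132). Over all 16168 genes limma-voom called 1793 higher and 2142 lower. Of 10 secretory granule genes 4 were tested and 0 passed by edgeR. The amidating enzyme Pam, the most abundant membrane protein of atrial granules, had an averaged difference of 0.19 (edgeR adjusted p = 0.0828) and was the 1 gene of that list called by DESeq2 (adjusted p = 0.00244) and by limma-voom (adjusted p = 0.011).

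In the cGMP pathway around the receptors edgeR called 1 gene by genotype and 0 by diet. Of 18 genes for nitric oxide-driven cGMP formation, cGMP breakdown and effectors, 16 were tested. Averaged over diets 1 was lower and 0 were higher in NaV1.5 by edgeR, where 0.452% of all genes passed. DESeq2 called 3, and over all genes 152 higher and 128 lower. By limma-voom 4 passed, and over all genes 283 were higher and 224 lower. The edgeR call was Mrvi1, a substrate of cGMP-dependent kinase that restrains calcium release in smooth muscle, with a log2 difference of -0.88 (SE 0.13, adjusted p = 0.00344). It averaged 31.2 ± 7.42 CPM in NaV1.5_HFD (n = 5) and 68.0 ± 17 CPM in Ctrl_HFD (n = 4), and 48.7 ± 8.52 CPM in NaV1.5_RD and 72.1 ± 8.70 CPM in Ctrl_RD (SD, n = 4 each). With diet averaged over genotypes 0 of the 16 passed by edgeR and DESeq2. By edgeR 5 had an unadjusted p below 0.05, where 23.5% of all genes did. By limma-voom 7 passed, and over all 16168 genes 1793 were higher and 2142 lower. In NaV1.5 atria alone diet gave 0 calls by edgeR, with 3 at an unadjusted p below 0.05, where 18.9% of all genes were. There DESeq2 called Mrvi1 (-0.64, adjusted p = 0.0118) and limma-voom called 2, 1 of them Mrvi1. Of all 16168 genes DESeq2 called 849 and limma-voom 1970 in that comparison. With diet averaged over genotypes, those nearest to the edgeR threshold were Pde1c (0.28, adjusted p = 0.104), Prkg2 (0.89, adjusted p = 0.113) and Mrvi1 (-0.34, adjusted p = 0.132).

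Of the 5 other receptor guanylyl cyclases only Gucy2e had enough counts to be tested in the diet groups, and none in NR and vehicle. This cyclase, known from photoreceptors, averaged 0.275 ± 0.0972 CPM in NaV1.5_HFD (n = 5) and 1.70 ± 0.77 CPM in Ctrl_HFD (n = 4), and 0.2 ± 0.173 CPM in NaV1.5_RD and 1.24 ± 0.424 CPM in Ctrl_RD (SD, n = 4 each). Its averaged log2 difference between NaV1.5 and Ctrl was -2.65 (SE 0.37, edgeR adjusted p = 0.00146), where 0.452% of all genes passed. Gucy2e was kept by the low-count filter through its Ctrl levels, and its NaV1.5 levels lay near 0. The p therefore adds little to the levels given. In both genotypes these were far below those of Npr1 and Npr2.

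No member passed the test of NR against vehicle. In batch 3, Nppa had 16895 and 12734 CPM in NR libraries, against 13583, 15740, 12363, 16029 and 13396 CPM in vehicle libraries. The 2 NR libraries spanned most of the vehicle range. The log2 difference was 0.08 (SE 0.17, 95% interval -0.29 to 0.44). Corin had 545 and 536 CPM in NR libraries, against 708, 502, 783, 577 and 715 CPM in vehicle libraries, with a difference of -0.26 (95% interval -0.66 to 0.13). Mme had 3.82 and 5.41 CPM in NR libraries, against 8.62, 5.35, 5.67, 6.82 and 4.24 CPM in vehicle libraries, with a difference of -0.39 (95% interval -0.85 to 0.08).

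Of 7 members tested 0 passed by edgeR, DESeq2 or limma-voom, 0 had an unadjusted p below 0.05, and the smallest adjusted p was 0.565 (Mme). Over all 16482 genes tested 0.425% passed and 11.1% had an unadjusted p below 0.05. The receptor differences were 0.16 for Npr1 (95% interval -0.06 to 0.38), 0.04 for Npr2 (95% interval -0.11 to 0.18) and -0.09 for Npr3 (95% interval -0.34 to 0.15). With 2 NR libraries in the shared batch the interval of Nppb ran from -1.28 to 1.89, so no useful bound was reached for that gene. By edgeR 0 genes of any pathway list passed in this comparison, with 3 genes of the cGMP list and 6 of the transcription factor list at an unadjusted p below 0.05. DESeq2 called Pde1c (-0.47, adjusted p = 0.0311) and Mef2a (-0.28, adjusted p = 0.0494), and limma-voom called 0. Over all genes DESeq2 called 54 higher and 200 lower there.

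The 5 NR libraries of batch 2 differed from both other sets in 6 members. Npr3 had 1024, 910, 968, 899 and 865 CPM there, against 344 and 283 CPM in the NR libraries of batch 3 and 280, 317, 350, 366 and 380 CPM in vehicle. Npr3 was thus 2.98 times as high in batch 2 as in batch 3 under the same NR treatment. Corin had 231, 164, 220, 200 and 149 CPM in batch 2, which is 0.357 times the NR level of batch 3, and Npr2 had 45.0, 44.2, 43.3, 46.3 and 46.1 CPM, which is 0.557 times that level. Nppa, at 7293, 9709, 7684, 6696 and 10610 CPM, was 0.567 times as high. Npr1, at 70.6, 60.2, 70.6, 78.5 and 65.9 CPM, was 1.63 times as high and Mme, at 12.3, 12, 11.4, 10.7 and 10.3 CPM, 2.46 times as high. None of these 6 genes overlapped between the NR libraries of the 2 batches. The share of all genes without overlap there was not taken, so the 6 are not set apart from other genes by it.

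**Figure D5:**
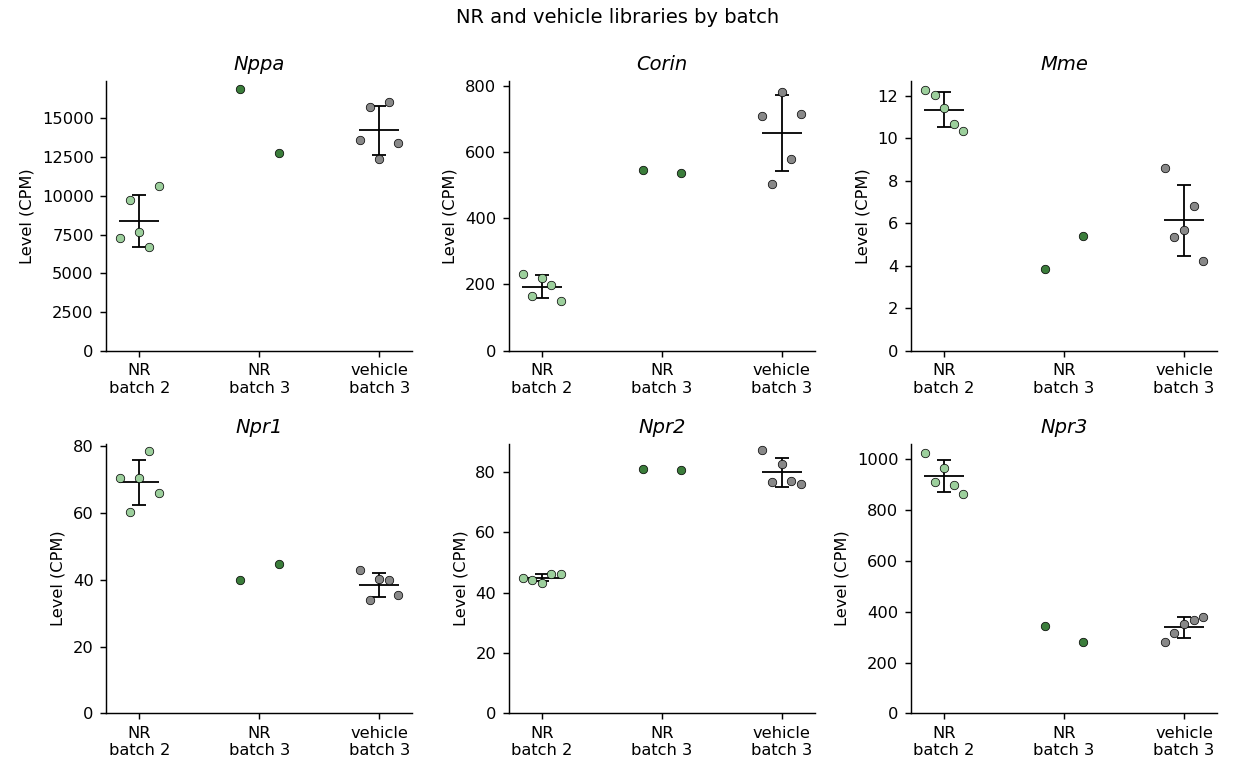
Levels of 6 members in CPM in NR libraries of batch 2, NR libraries of batch 3 and vehicle libraries of batch 3, 1 point per library, with the mean and SD where there are more than 2 libraries. NR libraries of batch 3 sit with or near vehicle for all 6 genes, whereas those of batch 2 lie apart, for example at 865 to 1024 CPM for Npr3.

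Because batch 2 holds NR but no vehicle libraries, treatment and batch cannot be told apart there. Taken against vehicle without regard to batch, those 5 libraries gave 6 called members of 7, where 60.4% of all genes tested passed, among them Npr3 (log2 difference 1.45), Corin (-1.78) and Npr2 (-0.84). Markers of other cell types moved with them. The summed level of 5 epicardial or mesothelial markers was 1063 to 1585 CPM in NR batch 2, against 240 to 476 CPM in NR batch 3 and 241 to 342 CPM in vehicle, and that of 5 endocardial markers 539 to 617 CPM, against 246 to 248 CPM and 228 to 246 CPM. That of 8 atrial cardiomyocyte markers was 11476 to 14348 CPM in NR batch 2, against 13969 to 16184 CPM in NR batch 3 and 14489 to 18550 CPM in vehicle. Their part in the result was not tested. The other library labelled batch 2, Ctrl_HFD replicate 4, had 212 CPM of Npr3 and 78.2 CPM of Npr2, inside the ranges of batch 1, and 301 CPM of Corin, just below the lowest library of batch 1 (307 CPM).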

How the data were processed

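RNA sequencing libraries from mouse atria were made from poly-A selected RNA with a stranded TruSeq kit, per the labels' protocols. The authors counted read pairs per gene with featureCounts 2.0.1 on GENCODE vM25 (GRCm38) and deposited these counts without normalization, per the file headers. FastQC 0.11.7 and STAR 2.7.6a are named in the submitters' processing notes. Per the file headers, counting ignored strand and dropped pairs on several places or genes. Genes that overlap on opposite strands are therefore uncertain.

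Groups and batches come from the labels. Counts were tested in R 4.3.3 with the quasi-likelihood test of edgeR 4.0.16 after filterByExpr and TMM scaling, with robust dispersions. Tests were 2-sided, and p-values were adjusted by Benjamini-Hochberg over every gene tested, with 0.05 as threshold. The 17 diet libraries and the 12 NR and vehicle libraries formed separate fits, each with group and batch as terms. The batch term absorbs Ctrl_HFD replicate 4, so contrasts with Ctrl_HFD rest on its 3 other libraries. SE is the absolute log2 difference divided by the square root of F. CPM used TMM factors over all 29 libraries, and FPKM the exon lengths in the files. Nppc did not pass the low-count filter. All 8 members are named. Of each pathway list, genes past the threshold are named, or at most the 3 with the smallest p where none passed. Like-pattern genes needed a mean CPM of at least 5 and r was taken on log2 CPM with a prior count of 2. Promoter windows come from the RefSeq table for GRCm38.p6, which held all 8 members. The members and lists were chosen with earlier results of these data known. DESeq2 1.42.0 and limma 3.58.1 were alternatives, beside other scalings, filters, batch handling and leaving out each library. The functions were tested on simulated counts.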

Additional observations from a re-analysis of the deposited data

Results flagged for a closer look

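Within groups of 4 to 10 libraries, the gap of the highest or lowest library to its nearest neighbour was set against the group's range (Dixon's criterion at 95%), over 42 combinations of member and group, and 2 met it. Chance flags about 1 in 20 groups. In NaV1.5_RD, replicate 4 had 61.7 CPM of Npr2, far below the other 3 libraries of its group. In Ctrl_RD, replicate 4 had 72.1 CPM of Npr2, likewise far below its 3 neighbours. The same 2 libraries had the most Npr3 of their groups, with 337 CPM in NaV1.5_RD replicate 4 and 321 CPM in Ctrl_RD replicate 4.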

How the results depend on the processing

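Nppa was lower on high-fat diet averaged over genotypes under every alternative and with every library left out. For the other counts of called members, the reported value changed as follows. In NaV1.5 atria 1 member was called on diet; it was 2 with all libraries in 1 fit, with DESeq2 and with limma-voom, 0 with offsets for G and C content and length, and 0 to 2 with single libraries left out (2 without NaV1.5_HFD replicate 4). Scaling on cardiomyocyte genes also gave 1 call there, but of Mme (adjusted p = 0.0361) in place of Nppa. In Ctrl atria 0 were called on diet, and 1 with DESeq2. For genotype averaged over diets 0 were called, and 1 with cardiomyocyte scaling. For diet averaged over genotypes 2 were called, 3 with limma-voom (Npr2 added), 1 with the offsets, and 1 to 3 with single libraries left out. For NR against vehicle 0 were called, 4 without the batch term and 6 with the NR libraries of batch 2 alone against vehicle. Over all genes 4393 of 16482 passed without the batch term, and 9851 of 16310 with batch 2 alone. Against vehicle, in the NR libraries of batch 2, Nppa (-0.78), Npr2 (-0.84), Npr3 (1.45) and Mme (0.87) changed direction and passed, and without the batch term Npr2 (-0.53) and Npr3 (1.16) did. The cause was not tested. Deviations of same-numbered libraries of different groups had r between -0.166 and 0.164 over 16 pairs. Pairs with other numbers had r between -0.21 and 0.31 over 56 pairs. No pairing by number was seen, although these few pairs cannot exclude one. With the replicate block, which leaves out the 2 libraries without a number, the calls on diet were 0 in NaV1.5 atria and 1 averaged over genotypes. In the averaged comparison Mme had 0.78 (adjusted p = 0.0598). A replicate block could not be fitted for NR, where numbers follow the batch. Over all genes, calls for diet in NaV1.5 atria ran from 4 to 1138 with single libraries left out and from 27 to 1970 over other settings, against 182 reported. The same ranges were 173 to 2202 and 246 to 3935 for diet averaged over genotypes (800 reported), 2 to 32 and 8 to 126 for genotype on high-fat diet (14 reported), 1 to 5 and 1 to 27 for genotype on regular diet (2 reported), 40 to 129 and 36 to 696 for genotype averaged over diets (73 reported), 1 to 66 and 9 to 9851 for NR (70 reported), and 0 to 0 and 0 to 69 for diet in Ctrl atria (0 reported). Cardiomyocyte scaling moved the median of all genes by 0.21 for genotype on high-fat diet. Depth limited Nppc, and to a lesser degree Mme.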
